A study of Mus musculus with 45 samples.

Results

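The genes followed here encode synaptic adhesion proteins of the neurexin, neuroligin and LRRTM families, and the 8 members are Nrxn2, Nrxn3, Nlgn1, Nlgn3, Lrrtm1, Lrrtm2, Lrrtm3 and Lrrtm4. They were chosen by name, all 8 were found by Ensembl identifier among the 18135 genes of the deposited table, and all 8 passed the filter on low values in each region. RNA-Seq values were available for 45 samples, namely prefrontal cortex (cortex hereafter), hippocampus and striatum of adult mice, with 5 samples for each of 3 genotypes per region. All mice were C57BL/6J males of 13 weeks. WT mice were compared with Shank3-heterozygous (Shank3-HT) and Shank3-homozygous (Shank3-HM) mice, whose mutant allele lacks exons 14 to 16 of Shank3. The labels call the homozygous mice knock-out, and the headers of their columns carry KI. Pups of the 3 genotypes were reared together, and nothing in the labels ties a sample of one region to a sample of another. The 3 regions of a genotype may have come from the same mice, so a mouse is named below by its region, and p values between regions, which treat the samples as separate, measure the spread between these samples. The tissue was bulk, in which fewer cells of a type and less RNA per cell cannot be told apart.

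Neurexins sit in the presynaptic membrane and reach across the cleft to several families of postsynaptic partners. Neuroligins and LRRTMs, the leucine-rich repeat transmembrane neuronal proteins, are such partners, and both can induce presynaptic differentiation and help to hold glutamate receptors at the synapse. Neuroligins bind scaffold proteins of the postsynaptic density, the structure in which Shank3 is a core scaffold. Variants in several neurexin, neuroligin and SHANK genes have been associated with autism spectrum disorder.

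The members lie on several chromosomes of GRCm38 (GENCODE annotation). Nrxn2 (ENSMUSG00000033768) spans chr19:6418731-6544169 on the plus strand, and Nrxn3 (ENSMUSG00000066392) chr12:88722876-90334935 on the plus strand. Nlgn1 (ENSMUSG00000063887) spans chr3:25426215-26332460 on the minus strand, and Nlgn3 (ENSMUSG00000031302) chrX:101299168-101325963 on the plus strand. Lrrtm1 (ENSMUSG00000060780) spans chr6:77242689-77257791 on the plus strand, Lrrtm3 (ENSMUSG00000042846) chr10:63928472-64090277 on the minus strand, and Lrrtm4 (ENSMUSG00000052581) chr6:80018877-80810143 on the plus strand. Lrrtm1, Lrrtm2 and Lrrtm3 each lie inside a gene for an alpha-catenin on the opposite strand, namely Ctnna2, Ctnna1 and Ctnna3. None of the 3 shares exonic bases with its host, with 0 overlapping exons each, and the libraries were stranded.

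Because Lrrtm1, Lrrtm3 and Lrrtm4 had different regional orders, the 250 bases upstream of their RefSeq start sites (GRCm38.p6) are shown, 5′ to 3′ on the gene's strand. The window of Lrrtm1 is chr6:77242227-77242476 on the plus strand, in an intron of Ctnna2. That of Lrrtm3 is chr10:64090256-64090505 on the minus strand, in an intron of Ctnna3, and that of Lrrtm4 is chr6:80018627-80018876 on the plus strand, outside the alpha-catenin genes. The RefSeq starts of Lrrtm1 (77242477) and Lrrtm3 (64090255) are not those of the GENCODE spans above (77242689 and 64090277). The window of Lrrtm3 thus overlaps its GENCODE span, and that of Lrrtm1 ends before its GENCODE span without adjoining it. Capitals mark matches, on either strand, to the TATA box core TATAAA, the box sequence CCAAT, the GC box core GGGCGG, the cAMP response element core TGACGT or the E-box CACGTG.
Lrrtm1: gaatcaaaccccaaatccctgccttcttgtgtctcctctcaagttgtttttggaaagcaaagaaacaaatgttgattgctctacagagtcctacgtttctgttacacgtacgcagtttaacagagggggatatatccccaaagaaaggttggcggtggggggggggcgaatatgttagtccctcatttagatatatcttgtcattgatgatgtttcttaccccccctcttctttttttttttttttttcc
Lrrtm3: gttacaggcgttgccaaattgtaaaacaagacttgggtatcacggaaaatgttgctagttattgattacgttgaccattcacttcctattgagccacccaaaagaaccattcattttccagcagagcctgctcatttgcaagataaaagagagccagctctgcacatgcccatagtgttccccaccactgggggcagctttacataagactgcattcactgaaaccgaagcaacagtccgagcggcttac
Lrrtm4: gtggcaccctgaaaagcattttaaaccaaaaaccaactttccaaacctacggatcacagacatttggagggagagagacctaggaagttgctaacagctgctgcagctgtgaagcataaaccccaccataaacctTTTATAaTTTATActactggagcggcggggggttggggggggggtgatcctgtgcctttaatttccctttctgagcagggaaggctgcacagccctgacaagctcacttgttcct
The windows of Lrrtm1 and Lrrtm3 held none of the motifs. That of Lrrtm4 held TTTATA, the reverse complement of TATAAA, at 115 to 110 and at 108 to 103 bases before the start, without overlap. Among the same windows of 32851 promoters, 12.4% held TATAAA, 33.8% CCAAT, 32.7% GGGCGG, 6.47% TGACGT and 6.02% CACGTG. The GC content was 42.0% for Lrrtm1, 46.0% for Lrrtm3 and 49.2% for Lrrtm4, against a median of 52.4% over all promoters. A match is a run of letters and not a measured site, and the promoter table held 5 of the 8 members.

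Shank3 itself followed the labels, with cortical means of 8005 (WT), 6138 (Shank3-HT) and 4054 (Shank3-HM), and with no overlap between mutant and WT mice in any region. Marker genes followed the regions. The summed level of 8 striatal spiny projection neuron markers was 144017 to 195992 in WT striatum, 3987 to 4533 in WT cortex and 2304 to 2859 in WT hippocampus. That of 6 cortical excitatory neuron markers was 51807 to 55801 in WT cortex, 36361 to 46278 in WT hippocampus and 1601 to 10548 in WT striatum, and that of 6 hippocampal excitatory neuron markers was 16458 to 26006 in WT hippocampus, 3223 to 4322 in WT cortex and 7924 to 11581 in WT striatum. A sum is carried by the most abundant genes of a list. By mean log2 level, the hippocampal markers were at 10.91 in WT hippocampus, 7.38 in WT cortex and 6.32 in WT striatum, so the striatum was then lowest. The cortex of Shank3-HM replicate 2 stood apart, with a sum of 39841 for the spiny projection neuron markers and 29521 for the cortical markers. Choroid plexus markers, which come from tissue that lines the ventricles, summed to 1204 to 119691 over the hippocampal samples and to 66020 in the striatum of Shank3-HT replicate 5. Values are normalized counts throughout. Per sample they sum to between 26118607 and 29568983 by construction, so the depth of sequencing and the counting error are unknown.

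The levels of the members differed between regions of WT mice, and the direction differed from gene to gene. Relative to the cortex, 7 of the 8 members were higher in the striatum and Nrxn2 was lower, whereas in the hippocampus 2 members were higher (Lrrtm1 and Lrrtm4), 4 were lower (Nrxn2, Nrxn3, Lrrtm2 and Lrrtm3), and Nlgn1 and Nlgn3 did not pass the test. Lrrtm1 had its highest level in the hippocampus, at 2.44-fold that of the cortex, and Lrrtm3 its lowest, at 0.336-fold. These calls are from limma with Benjamini-Hochberg adjusted p values under 0.05 over 16708 genes, and they stand against a background in which 46.6% of all genes differed between hippocampus and cortex (23.3% up, 23.3% down) and 59.3% between striatum and cortex (30% up, 29.3% down). Between striatum and hippocampus, 6 members differed (4 higher, 2 lower in the striatum), where 56.1% of all genes did (27.8% up, 28.3% down). In each of the 3 comparisons the WT samples of 5 members did not overlap between regions, against 32%, 46.3% and 38.5% of all genes for hippocampus against cortex, striatum against cortex and striatum against hippocampus. The median log2 difference of the 8 members was -0.18, 0.38 and 0.22 in the same order. The cell type markers above also differ between the regions, and their part in these differences was not tested.

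**Figure D1:**
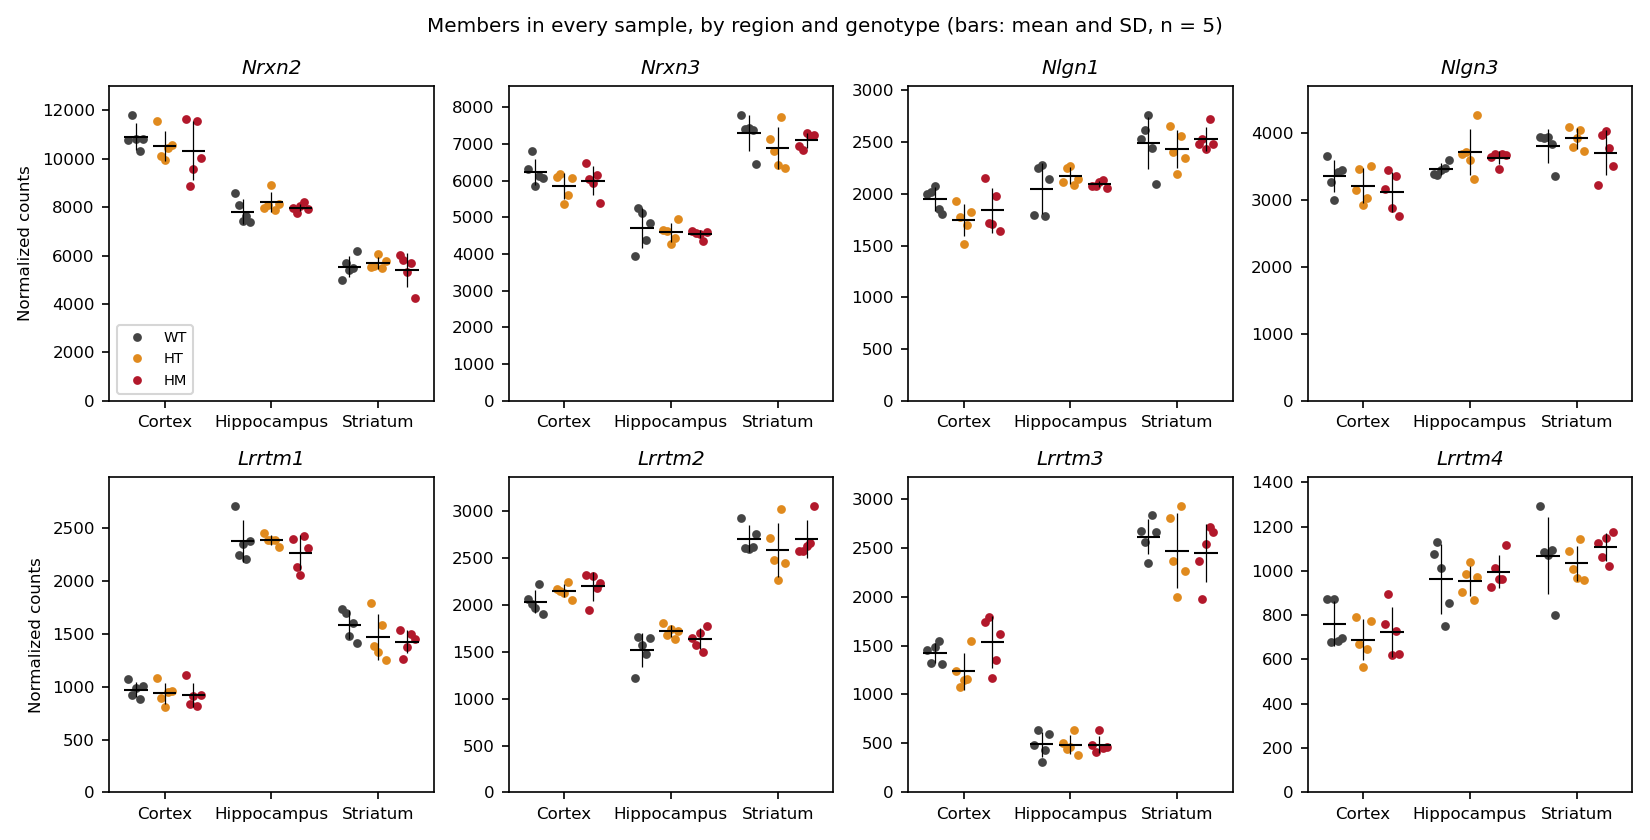
Normalized counts of the 8 members (vertical axes from 0) in each of the 45 samples, grouped by region along the horizontal axis and coloured by genotype, with bars for the mean and SD of 5 mice. Lrrtm1 is highest in the hippocampus and Lrrtm3 lowest there in all 3 genotypes, Nrxn2 is lowest in the striatum, and within each region the colours overlap in every panel.

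Of the neurexins, Nrxn2 was highest in the cortex, lower in the hippocampus and lowest in the striatum. Its normalized counts in WT mice were 10763, 11824, 10838, 10329 and 10824 in the cortex, 8572, 8074, 7427, 7627 and 7410 in the hippocampus, and 4988, 5707, 5389, 5495 and 6179 in the striatum. The 3 regions did not overlap. By limma, the log2 difference was -0.48 (SE 0.070, adjusted p = 1.81e-07) for hippocampus against cortex, -0.98 (SE 0.070, adjusted p = 6.57e-16) for striatum against cortex and -0.50 (SE 0.070, adjusted p = 6.21e-08) for striatum against hippocampus. The striatal level was 0.508-fold the cortical one (95% confidence interval 0.461 to 0.56).

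Nrxn3 had another order, with its lowest level in the hippocampus. Its normalized counts in WT mice were 6316, 6801, 5850, 6127 and 6063 in the cortex, 3959, 5267, 5117, 4374 and 4854 in the hippocampus, and 7798, 7411, 7435, 7383 and 6464 in the striatum. All hippocampal values lay below those of both other regions, while the cortical mouse at 6801 lay above the striatal mouse at 6464. In limma, Nrxn3 had a log2 difference of -0.41 (SE 0.061, adjusted p = 3.94e-07) for hippocampus against cortex, 0.23 (SE 0.061, adjusted p = 0.00152) for striatum against cortex and 0.64 (SE 0.061, adjusted p = 5.24e-12) for striatum against hippocampus.

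The balance of Nrxn2 and Nrxn3 differed in the striatum. The ratio of Nrxn2 to Nrxn3 normalized counts, a measure chosen after the values were seen and given as a description, was 1.75 ± 0.067 (SD, n = 5) in WT cortex, 1.68 ± 0.29 in WT hippocampus and 0.767 ± 0.12 in WT striatum. Every WT striatal mouse was below 1 (0.64 to 0.956), and every WT mouse of the other regions was above it (1.45 to 2.17). The mutant mice showed the same split, with 0.709 to 0.947 in the striatum of Shank3-HT and 0.586 to 0.87 in that of Shank3-HM mice, and with 1.47 to 2.09 in their cortex and hippocampus. Per kilobase of the longest annotated coding transcript, Nrxn2 had the highest level of the 8 members in WT cortex (1637 ± 82.4) and WT hippocampus (1173 ± 74.6), and Nrxn3 in WT striatum (921 ± 62.6, with Nrxn2 at 833 ± 65.6). These first places held with the median transcript length, whereas the order of most other members depended on the length used and is not given.

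The neuroligins had smaller regional differences than Nrxn2, Lrrtm1 and Lrrtm3. Nlgn1, which acts mainly at excitatory synapses, had normalized counts in WT mice of 1992, 2016, 2076, 1848 and 1804 in the cortex, 1791, 2251, 2273, 1788 and 2146 in the hippocampus, and 2531, 2614, 2763, 2441 and 2093 in the striatum. The striatal values lay above all cortical ones, and cortex and hippocampus overlapped. Its log2 difference was 0.35 (SE 0.073, adjusted p = 6.79e-05, limma) for striatum against cortex, 0.28 (SE 0.073, adjusted p = 0.00108) for striatum against hippocampus and 0.07 (SE 0.073, adjusted p = 0.469, 95% confidence interval -0.08 to 0.22) for hippocampus against cortex.

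Nlgn3, an X-linked neuroligin found at both excitatory and inhibitory synapses, had normalized counts in WT mice of 3649, 3275, 3003, 3414 and 3451 in the cortex, 3389, 3367, 3454, 3483 and 3602 in the hippocampus, and 3946, 3931, 3936, 3835 and 3355 in the striatum. The striatal mouse of replicate 5 lay inside the cortical range and below all hippocampal values, and the other 4 striatal mice lay above every mouse of the other regions. The log2 difference was 0.18 (SE 0.064, adjusted p = 0.0159, limma) for striatum against cortex, 0.13 (SE 0.064, adjusted p = 0.0748) for striatum against hippocampus and 0.05 (SE 0.064, adjusted p = 0.593) for hippocampus against cortex, so that neighbours in its order did not differ beyond their spread. Both striatal results rest on single mice. Without the cortex of WT replicate 3 the first was 0.14 (adjusted p = 0.0722), and without the striatum of WT replicate 5 the second was 0.18 (adjusted p = 0.0206). That striatal sample also had the highest summed cortical excitatory neuron markers of the WT striata (10548, against at most 3105 in the others) and the lowest summed spiny projection neuron markers (144017), and the part of this in its Nlgn3 level was not tested. Nlgn2, the neuroligin of inhibitory synapses and not one of the members, is named in addition to the genes set by rule, with log2 differences of -0.30 for hippocampus against cortex (adjusted p = 2.57e-06) and -0.34 for striatum against cortex (adjusted p = 1.08e-07).

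**Figure D2:**
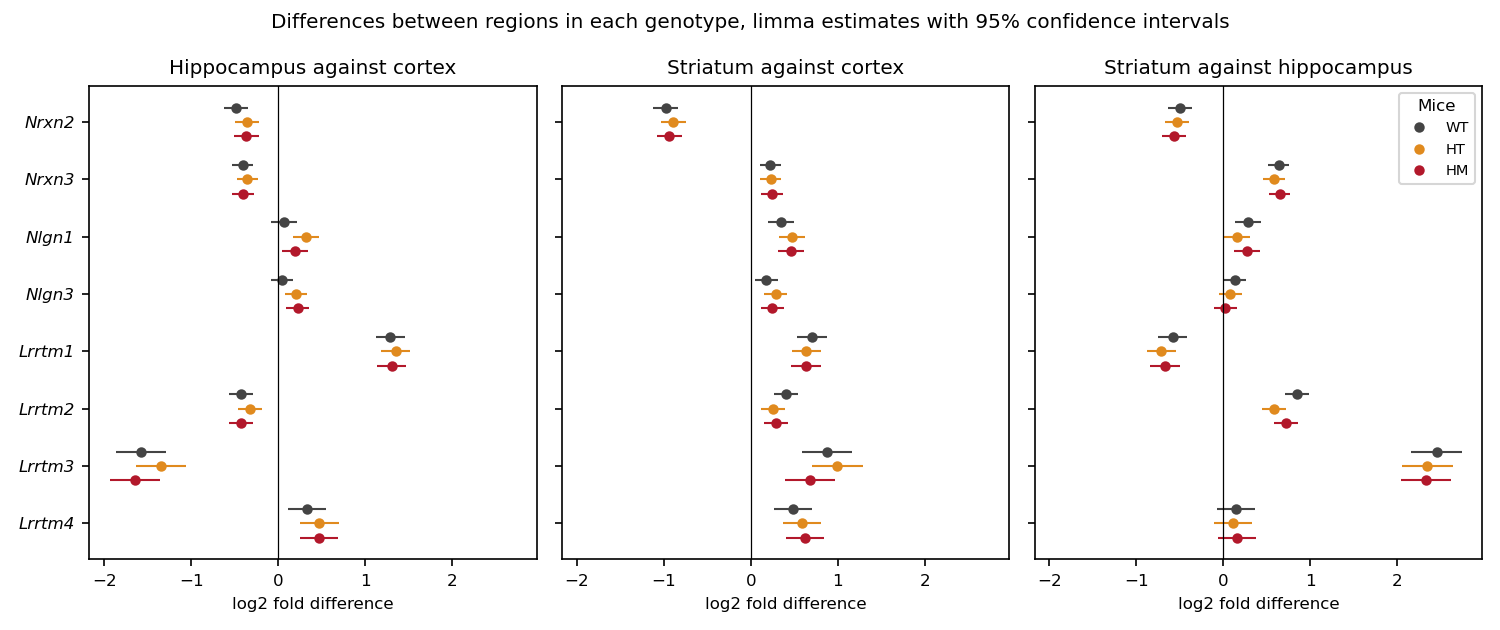
Log2 differences of the 8 members between regions (horizontal axes) for WT, Shank3-HT and Shank3-HM mice, as limma estimates with 95% confidence intervals from the fit of all 9 groups, with a line at 0. Lrrtm1 and Lrrtm3 lie on opposite sides of 0 in the comparisons of hippocampus with cortex and of striatum with hippocampus, and the 3 genotypes of each member lie close together.

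The LRRTMs, which bind neurexins from the postsynaptic side, split into different regional orders. Lrrtm1 was highest in the hippocampus. Its normalized counts in WT mice were 1068, 918, 989, 882 and 1004 in the cortex, 2705, 2248, 2345, 2210 and 2373 in the hippocampus, and 1736, 1696, 1480, 1603 and 1414 in the striatum, with no overlap between any pair of regions. The log2 difference of Lrrtm1 was 1.29 (SE 0.083, adjusted p = 6.9e-17, limma) for hippocampus against cortex, 0.70 (SE 0.083, adjusted p = 1e-09) for striatum against cortex and -0.58 (SE 0.083, adjusted p = 8.48e-08) for striatum against hippocampus.

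Lrrtm3 showed the reverse in the hippocampus. Its normalized counts in WT mice were 1452, 1317, 1490, 1543 and 1314 in the cortex, 484, 634, 312, 431 and 592 in the hippocampus, and 2670, 2560, 2344, 2835 and 2656 in the striatum. Again no pair of regions overlapped. Lrrtm3 had a log2 difference of -1.57 (SE 0.14, adjusted p = 1.83e-12, limma) for hippocampus against cortex, 0.88 (SE 0.14, adjusted p = 1.12e-06) for striatum against cortex and 2.45 (SE 0.14, adjusted p = 8.73e-19) for striatum against hippocampus, where its level was 5.47-fold higher (95% confidence interval 4.48 to 6.68). The spread between mice was widest in the hippocampus, with a coefficient of variation of 26.2% in WT mice against 7.3% in WT cortex and 6.9% in WT striatum.

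Lrrtm2 had the same order as Nrxn3 and Lrrtm3, with the striatum first and the hippocampus last. Its normalized counts in WT mice were 2069, 2013, 1967, 2220 and 1903 in the cortex, 1217, 1663, 1575, 1478 and 1645 in the hippocampus, and 2933, 2607, 2597, 2623 and 2759 in the striatum, and no pair of regions overlapped. For Lrrtm2 the log2 difference was -0.43 (SE 0.068, adjusted p = 1.07e-06, limma) for hippocampus against cortex, 0.41 (SE 0.068, adjusted p = 1.64e-06) for striatum against cortex and 0.84 (SE 0.068, adjusted p = 3.11e-14) for striatum against hippocampus.

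Lrrtm4, which also binds heparan sulphate proteoglycans, was lower in the cortex than in both other regions. Its values in WT mice were 874, 679, 874, 683 and 698 in the cortex, 1077, 1130, 1011, 749 and 854 in the hippocampus, and 1292, 1087, 1073, 1092 and 801 in the striatum. All 3 regions overlapped. The log2 difference was 0.33 (SE 0.11, adjusted p = 0.0103, limma) for hippocampus against cortex and 0.48 (SE 0.11, adjusted p = 0.000192) for striatum against cortex. Hippocampus and striatum did not differ beyond their spread (log2 difference 0.15, SE 0.11, adjusted p = 0.25), but without the striatum of WT replicate 5 the difference was 0.25 (adjusted p = 0.0461). That is the striatal sample with the high cortical markers, and it had the lowest Lrrtm4 value of the group.

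The composition of the LRRTM transcripts followed from these opposite orders and is given as a description. Per kilobase of the longest coding transcript, Lrrtm1 made up 29.9% ± 2.0 (SD, n = 5) of the summed levels of Lrrtm1 to Lrrtm4 in WT cortex, 60.5% ± 3.4 in WT hippocampus and 31.0% ± 1.3 in WT striatum. Lrrtm3 made up 28.6% ± 1.4, 8.12% ± 1.9 and 33.4% ± 2.0 in the same order, and Lrrtm2 28.1% ± 1.7, 17.4% ± 2.4 and 23.7% ± 1.3. With the median transcript length, which is shorter for Lrrtm1, Lrrtm2 and Lrrtm4, the share of Lrrtm1 was 25.3%, 53.3% and 26.8%, that of Lrrtm3 24.0%, 7.12% and 28.7%, and that of Lrrtm2 35.2%, 22.7% and 30.4%. Lrrtm1 thus had the highest share of the hippocampal sum with either length, whereas the first place in the cortex and striatum passed to Lrrtm2. The ratio of Lrrtm1 to Lrrtm3 normalized counts was 3.55 to 7.51 in the 5 WT hippocampi and 0.532 to 0.764 in the WT mice of the other regions. Shank3-HT and Shank3-HM mice had the same split, with 3.24 to 6.07 in the hippocampus and 0.469 to 0.868 elsewhere.

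**Figure D3:**
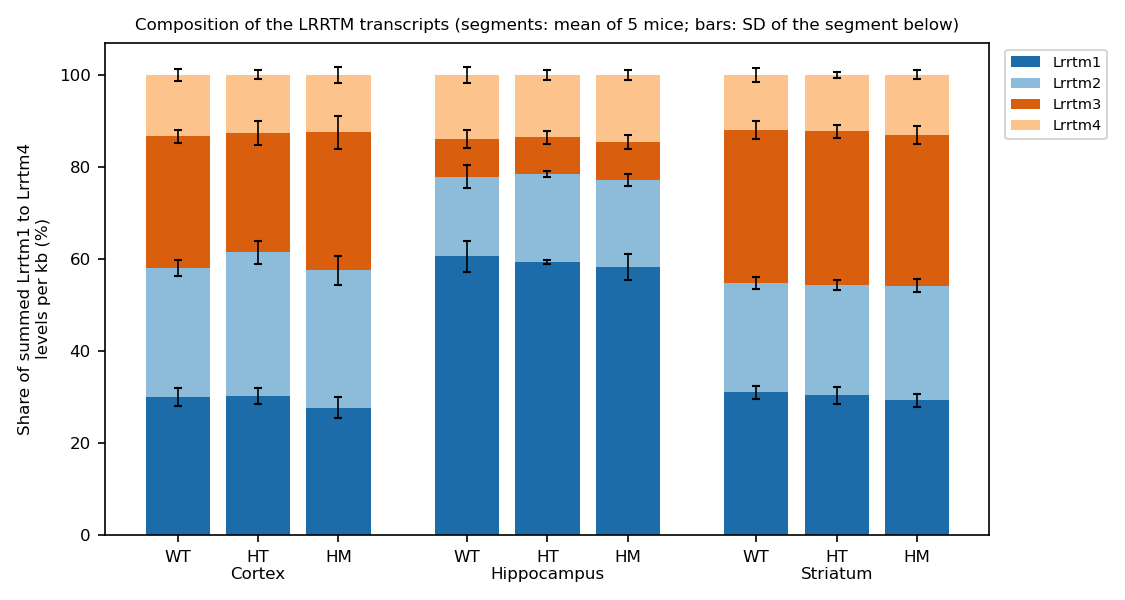
Share of each LRRTM in the summed Lrrtm1 to Lrrtm4 levels per kilobase of the longest coding transcript (vertical axis, percent, from 0), by region and genotype, with segments for the mean of 5 mice and bars for the SD of the segment below. Lrrtm1 takes 58.2% to 60.5% of the hippocampal sum in the 3 genotypes, and Lrrtm3 7.89% to 8.21%.

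The host genes of the LRRTMs did not all share the order of the gene inside them. Ctnna1, the host of Lrrtm2, was likewise highest in WT striatum (2910 ± 193) and lowest in WT hippocampus (1534 ± 192), with 1803 ± 127 in WT cortex. Ctnna2, the host of Lrrtm1, had its lowest level in WT hippocampus (2544 ± 155, against 3569 ± 136 in cortex and 3307 ± 95.7 in striatum), where Lrrtm1 was highest. Ctnna3, the host of Lrrtm3, was low in all regions, at 29.7 ± 4.47 in WT cortex, 35.5 ± 9.76 in WT hippocampus and 86.3 ± 10.7 in WT striatum, each below the lowest Lrrtm3 value of 312.

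The regional orders were also present in the mutant mice. Hippocampus and cortex differed for all 8 members in both Shank3-HT and Shank3-HM mice (limma adjusted p under 0.05), where 45% and 42.2% of all genes differed. The additional calls were Nlgn1 and Nlgn3, with log2 differences of 0.32 and 0.21 in Shank3-HT mice and 0.19 and 0.22 in Shank3-HM mice, against 0.07 and 0.05 in WT mice. Striatum and cortex differed for all 8 members in both mutants, with Nrxn2 again the single lower member (-0.89 in Shank3-HT and -0.94 in HM mice), where 58.6% and 57.4% of all genes differed. Striatum and hippocampus differed for 5 members in Shank3-HT and 6 in HM mice, where 53.6% and 54.8% of all genes differed. Nlgn1 was the member without a call in Shank3-HT mice (log2 difference 0.16, adjusted p = 0.062), in addition to Nlgn3 and Lrrtm4.

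Over all 45 samples, the genes with the most similar log2 values to each member were found by Pearson correlation among 16708 genes. They are given as a description, since the samples share 3 regions and their tissue composition. For Nrxn2 they were Ephb3 (r = 0.974), Plbd2 (r = 0.972) and Lingo1 (r = 0.972), and for Nrxn3 Fgf14 (r = 0.973), Kcnq5 (r = 0.966) and Dlgap2 (r = 0.963). For Nlgn1 they were Rbfox1 (r = 0.943), Pja2 (r = 0.925) and Cdh8 (r = 0.912), and for Nlgn3 Nucks1 (r = 0.822), Smcr8 (r = 0.789) and Sp3 (r = 0.786). Nlgn3, which varied little between regions, had the lowest of these values. For Lrrtm1 they were Ncdn (r = 0.975), Dpp6 (r = 0.972) and Scn3b (r = 0.971), for Lrrtm2 Ptchd1 (r = 0.952), Ttc9 (r = 0.952) and Fgf14 (r = 0.952), for Lrrtm3 Cpne5 (r = 0.978), Gucy1a1 (r = 0.977) and Ngef (r = 0.977), and for Lrrtm4 Tle1 (r = 0.891), Adgrb3 (r = 0.891) and Kdm4c (r = 0.885). Among the members, Nrxn3, Lrrtm2 and Lrrtm3 had r of 0.921 to 0.929 with each other. After the mean of each of the 9 groups was removed, Nrxn3 had r of 0.716 with Nlgn1 (0.467 before), 0.55 with Lrrtm2 and 0.121 with Lrrtm3, over samples that also differ in their cell type markers.

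No member passed the threshold between mutant and WT mice. In the cortex, hippocampus and striatum, 0 of the 8 members had an adjusted p value under 0.05 in limma in either Shank3-HT or Shank3-HM mice, and for all 8 members the mutant and WT values overlapped. Of all genes tested, 0% and 0.0121% were called in the cortex of the HT and HM genotype, 0.00603% and 0.00603% in the hippocampus, and 0.00607% and 0.182% in the striatum, so that few genes of any kind were called. Shank3 itself was thus not called in Shank3-HT cortex, although the study lists it as downregulated in all 6 comparisons. The samples of mutant and WT mice did not overlap for 0.63%, 0.8%, 0.797%, 0.736%, 0.971% and 1.86% of genes in the same order. At an unadjusted p under 0.05, 1 member in 1 of the 6 comparisons passed (Lrrtm2 in the hippocampus of Shank3-HT mice), against 2.68%, 5.49%, 5.26%, 4.73%, 7.43% and 7.43% of all genes, again in that order. Each interval, taken singly and without adjustment for the number of estimates, gives a range for the size of what could have been missed. Over all 8 members and 6 comparisons, the 95% confidence intervals of the log2 changes ran from -0.45 to 0.38.

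**Figure D4:**
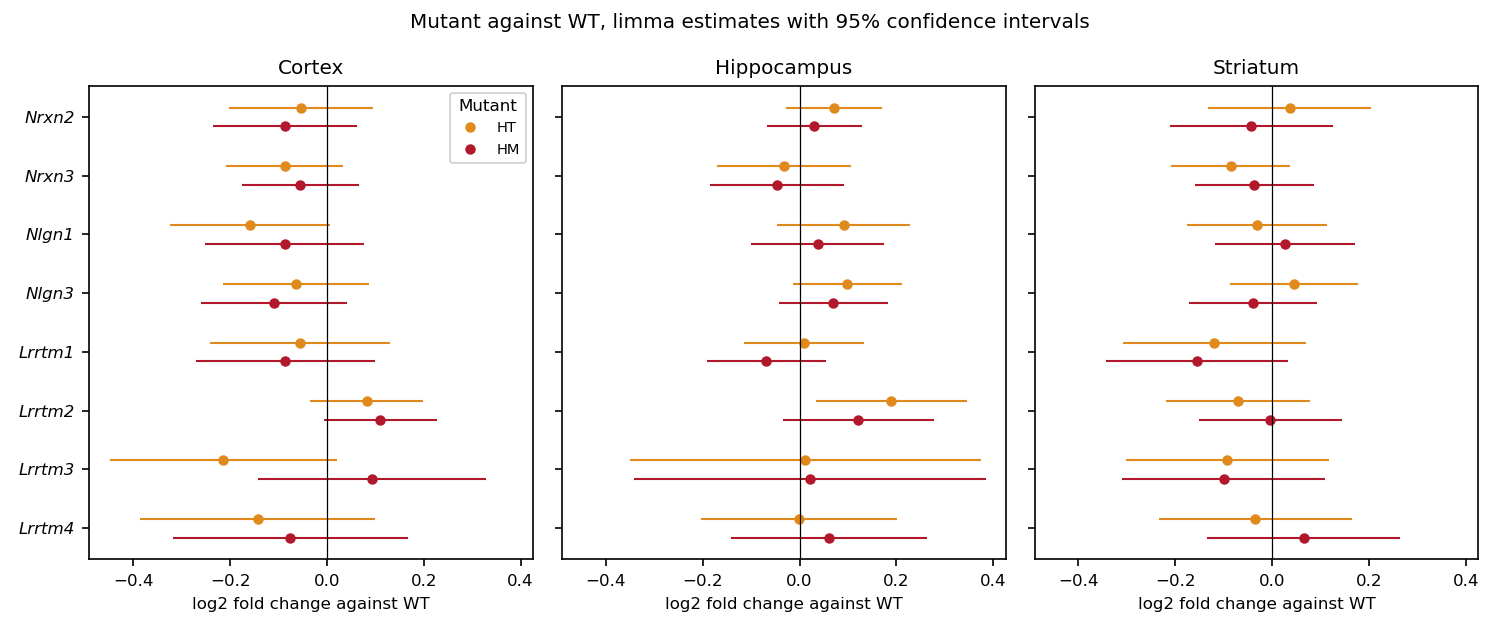
Log2 changes of the 8 members in Shank3-HT and Shank3-HM mice against WT mice of the same region (horizontal axes, line at 0), as limma estimates with 95% confidence intervals. The interval of Lrrtm2 in the hippocampus of Shank3-HT mice (0.03 to 0.35) is the one that does not include 0.

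In the cortex, most members had estimates slightly below 0. The median log2 change was -0.08 in Shank3-HT mice, where 1 of 8 members (Lrrtm2) was above 0, and -0.08 in Shank3-HM mice, where Lrrtm2 and Lrrtm3 were above 0. Over all genes the medians were -0.0011 and -0.0025, with 49.6% and 49.1% above 0. Lrrtm3 had normalized counts of 1243, 1075, 1146, 1161 and 1548 in Shank3-HT mice and 1742, 1788, 1171, 1354 and 1616 in Shank3-HM mice, around the 1314 to 1543 of WT mice. The log2 change was -0.21 (SE 0.11, 95% confidence interval -0.45 to 0.02, adjusted p = 0.9997, limma) in Shank3-HT and 0.09 (SE 0.11, 95% confidence interval -0.14 to 0.33, adjusted p = 0.928) in Shank3-HM mice. Nlgn1 had normalized counts of 1932, 1771, 1514, 1696 and 1824 in Shank3-HT mice, against 1804 to 2076 in WT mice, so that the groups overlapped. Its log2 change was -0.16 (SE 0.078, 95% confidence interval -0.32 to 0.006, adjusted p = 0.9997). Lrrtm2 had a log2 change of 0.08 in Shank3-HT and 0.11 in HM mice (95% confidence interval -0.0056 to 0.23, adjusted p = 0.878).

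In Shank3-HM cortex, replicate 2 was the sample with high striatal markers, and it had the lowest Nrxn2 (8871) and Lrrtm2 (1949) and the highest Nlgn3 (3446), Lrrtm3 (1788) and Lrrtm4 (893) of the 5. Without it the log2 changes were -0.03 for Nrxn2, -0.15 for Nlgn3, 0.15 for Lrrtm2, 0.03 for Lrrtm3 and -0.15 for Lrrtm4, and 0 members were called. The interval of Lrrtm2 was then 0.05 to 0.26 (limma adjusted p = 0.895), and that of Nlgn3 was -0.29 to 0.0032 (adjusted p = 0.939). Of the 6 cortical excitatory neuron markers, 0 were above 0 in either mutant (median log2 changes -0.08 in Shank3-HT and -0.17 in HM mice). Without replicate 2 the median of these markers in Shank3-HM mice was 0.0090, with 3 of 6 above 0. All 5 oligodendrocyte markers were above 0 in both mutants (medians 0.17 and 0.16), with sums of 62186 to 88917 in Shank3-HT, 56265 to 80572 in Shank3-HM and 55506 to 71364 in WT mice, and without replicate 2 the median in Shank3-HM mice was 0.089, with 4 of 5 above 0. In Shank3-HM cortex all 8 spiny projection neuron markers were above 0 (median 0.89, and 0.14 with 7 of 8 above 0 without replicate 2), and all 4 endothelial markers (median -0.15) and all 5 microglia markers (median -0.10) were below 0, as they were without replicate 2 (medians -0.14 and -0.08). At an unadjusted p under 0.05 (limma, without replicate 2), 2 of 4 endothelial, 1 of 5 microglia and 2 of 6 cortical excitatory neuron markers passed in Shank3-HM mice. At that level 0 of 8 spiny projection neuron and 0 of 5 oligodendrocyte markers passed, and 5.14% of all genes did. None of these markers passed after adjustment, and their part in the estimates of the members was not tested.

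In the hippocampus, the largest estimate was that of Lrrtm2. Its normalized counts were 1804, 1675, 1747, 1638 and 1726 in Shank3-HT mice and 1645, 1576, 1702, 1502 and 1780 in Shank3-HM mice, against 1217, 1663, 1575, 1478 and 1645 in WT mice. The WT mouse at 1217 had the lowest value of the 3 groups, and the Shank3-HT mouse at 1638 lay below 2 WT mice. The log2 change was 0.19 in Shank3-HT mice (SE 0.074, 95% confidence interval 0.03 to 0.35, unadjusted p = 0.0202, adjusted p = 0.926, limma) and 0.12 in Shank3-HM mice (SE 0.074, 95% confidence interval -0.03 to 0.28, adjusted p = 0.92). At that unadjusted level, 5.26% of all genes passed in Shank3-HT hippocampus. Both estimates were smaller without that WT mouse, replicate 1. Without it the log2 change of Lrrtm2 was 0.11 in Shank3-HT mice (SE 0.054, 95% confidence interval -0.0010 to 0.23, adjusted p = 0.901, limma) and 0.04 in Shank3-HM mice (95% confidence interval -0.07 to 0.16). The neurexins moved away from 0 when it was left out. Nrxn2 went from 0.07 (95% confidence interval -0.03 to 0.17) to 0.10 (95% confidence interval 0.02 to 0.19, limma adjusted p = 0.887) in Shank3-HT mice, and from 0.03 to 0.06 in HM mice. Nrxn3 went from -0.03 to -0.09 in Shank3-HT mice and from -0.05 to -0.11 in HM mice, with intervals that included 0. The same sample had the lowest Nrxn3 and the highest Nrxn2 and Lrrtm1 of the WT hippocampi, and the lowest sum of hippocampal excitatory neuron markers (16458, against 22735 to 26006 in the other WT mice). By the mean log2 level of these markers it hardly stood apart, at 10.84 against 10.87 to 11.05 in the other WT mice and 10.66 to 11.04 in Shank3-HT mice. The other members had log2 changes of at most 0.10 in size in Shank3-HT mice and 0.07 in Shank3-HM mice, and the median of all 8 was 0.04 and 0.03 (6 of 8 above 0 in each, against 52% and 51.5% of all genes). Lrrtm3, at its low hippocampal level, was the least precise, with an interval of -0.35 to 0.38 in Shank3-HT mice. Choroid plexus markers summed to 2854 to 119691 in WT, 1204 to 32622 in Shank3-HT and 5786 to 58605 in Shank3-HM hippocampus. The cortical excitatory neuron markers had a median log2 change of 0.13 in Shank3-HT mice (4 of 6 above 0, 3 of 6 at an unadjusted p under 0.05, 2 of 6 without overlap) and of 0.11 in Shank3-HM mice (4, 2 and 1 of 6), and none of them passed after adjustment. Other lists also leaned to one side, given here without WT replicate 1. In Shank3-HM mice all 4 endothelial and all 5 oligodendrocyte markers were below 0 (medians -0.17 and -0.08), and all 6 of the inhibitory interneuron list were above 0 (0.05). In Shank3-HT mice all 4 choroid plexus and all 4 endothelial markers were below 0 (medians -2.09 and -0.09), and all 5 astrocyte markers were above 0 (0.03). None of these was called. The part of all these markers in the values of the members was not tested.

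In the striatum, the largest estimates were those of Lrrtm1. Its normalized counts were 1793, 1385, 1328, 1583 and 1250 in Shank3-HT mice and 1530, 1261, 1372, 1499 and 1452 in Shank3-HM mice, against 1736, 1696, 1480, 1603 and 1414 in WT mice. The groups overlapped. The log2 change was -0.12 in Shank3-HT mice (SE 0.090, 95% confidence interval -0.31 to 0.07, adjusted p = 0.808, limma) and -0.16 in Shank3-HM mice (SE 0.090, 95% confidence interval -0.34 to 0.03, adjusted p = 0.76). The median log2 change of the 8 members was -0.05 in Shank3-HT and -0.04 in HM mice, with 2 of 8 above 0 in each, where 48% and 50.3% of all genes were above 0. The neurexins and neuroligins had changes of at most 0.09 in size in either mutant. All 5 oligodendrocyte markers were above 0 in both mutants (medians 0.36 and 0.22), with sums of 148138 to 197393 in WT, 161548 to 275266 in Shank3-HT and 163718 to 245943 in HM mice. In Shank3-HT striatum all 5 had an unadjusted p under 0.05, where 7.43% of all genes did. There the 5 astrocyte markers were also above 0 (median 0.16, 3 of 5 at an unadjusted p under 0.05), and the 6 cortical excitatory neuron markers were below 0 (median -0.97, 0 of 6 at an unadjusted p under 0.05). The cortical markers varied widely between striatal samples. Their sums were 534 to 8109 in Shank3-HT mice (highest in replicate 3), 1026 to 8054 in Shank3-HM mice (highest in replicate 1) and 1601 to 10548 in WT mice. Shank3-HM replicate 1 also had the lowest Nlgn3 of its group (3228). In Shank3-HM striatum the 6 genes of the inhibitory interneuron list were above 0 (median 0.17). The 2 of 6 without overlap were Gad1 (log2 change 0.21) and Gad2 (0.22), the enzymes of GABA synthesis, which spiny projection neurons also express. They carried the sum of the list (34939 to 37463 against 31176 to 32059 in WT mice), whereas its mean log2 level overlapped (9.97 to 10.56 against 9.89 to 10.51), as did Pvalb, Sst, Vip and Lhx6. The 4 endothelial markers were below 0 there (median -0.14, with sums of 3510 to 4193 against 3926 to 4643). None of these markers passed after adjustment. Their part in the estimates of the members was not tested.

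Tests of whether a mutant effect differed between regions called 0 of the 8 members in all 6 interaction contrasts, where the share of all genes called was 0% in the 3 Shank3-HT contrasts and 0%, 0.0539% and 0.0718% in the Shank3-HM contrasts (hippocampus against cortex, striatum against cortex, striatum against hippocampus). At an unadjusted p under 0.05, Nlgn1 passed for the Shank3-HT effect in the hippocampus against the cortex (log2 difference of changes 0.25, SE 0.10, 95% confidence interval 0.04 to 0.46, adjusted p = 1, limma), where 3.35% of all genes did. Lrrtm2 passed for the Shank3-HT effect in the striatum against the hippocampus (-0.26, SE 0.097, 95% confidence interval -0.45 to -0.06, limma adjusted p = 0.814), where 5.6% did. For Lrrtm2 the estimate was 0.19 in the hippocampus and -0.07 in the striatum of Shank3-HT mice, and without the hippocampus of WT replicate 1 the difference was -0.18. Neither result passed after adjustment.

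Genes that act with the members were followed in 3 lists. Of 26 secreted or membrane partners of neurexins (cerebellins, C1q-like proteins, neurexophilins, calsyntenins, MDGAs and others, with C1ql4 not in the table), 25 were tested in cortex and hippocampus and 24 in the striatum. The other lists held 36 genes of other synaptic adhesion systems (type IIa receptor phosphatases, Slitrks, latrophilins, FLRTs, teneurins and others) and 22 intracellular partners and splicing regulators. None of these genes was called between mutant and WT mice in any region by limma, with 0 to 5 genes per list at an unadjusted p under 0.05, where 2.68% to 7.43% of all genes passed that level. The highest counts were 5 of 36 other adhesion genes in Shank3-HT hippocampus (5.26% of all genes) and 5 of 22 intracellular partners in Shank3-HM striatum (7.43% of all genes). Their medians lay between -0.09 and 0.06 on the log2 scale.

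Between regions of WT mice, single neurexin partners had log2 differences far beyond those of the members. For hippocampus against cortex, 6 of 25 partners were higher and 10 lower by limma, where 23.3% of all genes were higher and 23.3% lower. The largest rise was that of C1ql2, a secreted C1q-like protein, with a log2 difference of 7.41 (1682 against 9.86 normalized counts, adjusted p = 5.03e-22), followed by Mdga1 at 2.65, a membrane protein that binds neuroligins and hinders their contact with neurexins. The largest falls were those of the secreted synapse organizers Cbln2 (-2.82, adjusted p = 1.25e-09) and Cbln4 (-1.03, adjusted p = 0.00055). For striatum against cortex, 7 of 25 partners were higher and 13 lower (30% and 29.3% of all genes), led by Nxph4 (1.34, at low levels of 56.8 against 20.7 normalized counts) on the one side and Cbln2 (-4.07) and C1ql3 (-3.88) on the other. For striatum against hippocampus, 7 of 25 were higher and 14 lower (27.8% and 28.3% of all genes), with C1ql2 (-7.49) and C1ql3 (-3.90) lowest.

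The counts of both other lists stand against the same shares of all genes, namely 46.6% called for hippocampus against cortex, 59.3% for striatum against cortex and 56.1% for striatum against hippocampus, about evenly up and down. Of the other adhesion systems, 8 of 36 genes were higher and 19 lower in the hippocampus than in the cortex, with Slitrk6 (2.23), Ntng1 (1.34), Flrt1 (-1.57) and Adgrl2 (-1.30) at the ends. In the striatum against the cortex, 4 were higher and 18 lower, with Slitrk6 (4.09), Tenm3 (1.51), Slitrk1 (-2.22) and Lrfn2 (-2.04) at the ends, and in the striatum against the hippocampus 15 were higher and 13 lower, with Slitrk6 (1.86), Adgrl2 (1.38), Lrfn2 (-2.17) and Ntng2 (-1.95). Slitrk6 was at low levels, with means of 7.75 normalized counts in WT cortex, 40.3 in WT hippocampus and 143 in WT striatum. Of the 22 intracellular partners and splicing regulators, 2 were higher and 16 lower in the hippocampus than in the cortex, where Lin7c (0.68) and Gphn (0.48) rose most and Sytl2 (-2.21) and Nova1 (-1.18) fell most. For striatum against cortex, 6 were higher and 15 lower, with Khdrbs2 (0.77) and Gphn (0.71) against Shank1 (-2.72) and Sytl2 (-2.08). For striatum against hippocampus, 8 were higher and 7 lower, with Dlg2 (0.87) and Nova1 (0.69) against Shank1 (-2.03) and Khdrbs3 (-1.57). Khdrbs2 and Khdrbs3 encode relatives of Sam68 that regulate neurexin splicing, and isoforms of the neurexins were not analysed here, since the values are per gene. The medians of the 3 lists were -0.11, -0.21 and -0.36 for hippocampus against cortex, -0.34, -0.13 and -0.40 for striatum against cortex, and -0.27, 0.03 and 0.03 for striatum against hippocampus.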

How the data were processed

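RNA from the cortex, hippocampus and striatum of WT, Shank3-HT and Shank3-HM mice was sequenced from stranded mRNA libraries. The deposited signal values are normalized counts per gene that the authors made before deposit by Salmon quasi-mapping with GC bias correction, import with tximport and DESeq2 normalization. The submitters' processing notes list Salmon 1.1.0, R 3.6.2, DESeq2 1.26.0 and GRCm38. Whole reads could not be recovered, so count models were not used, although the study fitted one. Over the samples, 12.9% to 32.2% of low values lay within 0.05 of a whole multiple of the best step. By chance 10% would for any fixed step, and the higher chance share for the best of many steps was not worked out. All 45 columns were used, and 18120 of 18135 identifiers had a symbol.

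Values were transformed as log2(value + 1), so that differences of low genes are understated. Genes with a mean of at least 10 were fitted with limma 3.58.1 in R 4.3.3 (linear models moderated by eBayes along the intensity trend), per region for mutant against WT (16507 genes in cortex, 16571 in hippocampus, 16482 in striatum) and over all 9 groups for regions and interactions (16708 genes). Wherever an adjusted p value is given, it is Benjamini-Hochberg adjusted over the genes tested in that fit, with a threshold of 0.05, and intervals are 95% confidence intervals. The fit was tested on simulated data. The members and the gene lists were chosen with earlier results of these data known. Named in addition were Shank3, the host genes Ctnna1 to Ctnna3, the 3 genes most alike to each member, and for each related list the 2 genes with the largest rise and the 2 with the largest fall between WT regions. A few of the genes this names are not reported here. Transcript lengths were from GENCODE, and promoter windows from RefSeq. Motifs were searched on both strands. Alternatives were a pseudocount of 0.1, no filter, a mean of at least 100, no intensity trend, quantile normalization, a block for the replicate number, fits of just the 2 groups compared, each sample left out in turn and, chosen after seeing the data, HT or HM mice in place of WT mice for the regions. Protein sequences were not analysed here. Python 3.11.15, numpy 2.4.6, pandas 2.3.3 and matplotlib 3.10.9 were used.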

Additional observations from a re-analysis of the deposited data

Results flagged for a closer look

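In 4 of the 72 groups of 5 mice (8 members, 9 groups each), 1 sample lay far from the others by Dixon's test, where chance alone flags about 1 in 20 groups. Nrxn2 in the hippocampus of Shank3-HT replicate 3 was high, at 8936 normalized counts against 7885 to 8150 in the other mice. Nlgn3 was low in the hippocampus of Shank3-HM replicate 3 (3459 against 3648 to 3693) and in the striatum of WT replicate 5 (3355 against 3835 to 3946). Lrrtm2 was high in the striatum of Shank3-HM replicate 5 (3054 against 2575 to 2659).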

How the results depend on the processing

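No member was called between mutant and WT mice, or in an interaction, under any alternative run, including each sample left out in turn. Between WT regions the 6 other settings of the fit to all 9 groups gave the same counts of called members (6 for hippocampus against cortex, 8 for striatum against cortex, 6 for striatum against hippocampus), and leaving out single samples gave 6, 7 to 8 and 6 to 8. HT mice in place of WT mice gave 8, 8 and 5, and HM mice 8, 8 and 6. Estimates near 0 changed sign. Lrrtm1 in the hippocampus of Shank3-HT mice was -0.0065 under quantile normalization. With single samples left out, the log2 changes in the hippocampus of Shank3-HT mice ran from -0.093 to 0.010 for Nrxn3, -0.016 to 0.057 for Lrrtm1, -0.14 to 0.12 for Lrrtm3 and -0.088 to 0.061 for Lrrtm4, and in Shank3-HM mice from -0.0098 to 0.077 for Nlgn1, -0.13 to 0.12 for Lrrtm3 and -0.027 to 0.12 for Lrrtm4. In the striatum of Shank3-HT mice they ran from -0.0014 to 0.076 for Nrxn2, -0.092 to 0.0085 for Nlgn1 and -0.13 to 0.038 for Lrrtm4, and in Shank3-HM mice from -0.086 to 0.043 for Nrxn2, -0.034 to 0.066 for Nlgn1, -0.083 to 0.0093 for Nlgn3, -0.049 to 0.026 for Lrrtm2 and -0.035 to 0.14 for Lrrtm4. The causes were not tested. With the replicate number as a block, 0 members were called between mutant and WT mice and 6, 8 and 6 between WT regions, as without it. The numbers were not shown to pair samples, since samples of one number had r over 0.1 throughout in 0 of 15 sets within regions and in 3 of 15 sets across regions. The mean r was 0.029 within regions and 0.071 across regions, and this rule cannot decide on weak pairing. Depth is unknown, 5 mice per group limit what can be detected, and Lrrtm3 in the hippocampus is the least precise.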
